A study of Mus musculus with 7 samples.

Results

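The secreted factors of muscle described here are 9 genes, namely Il15, Il6, Fgf21, Gdf15, Lif, Bdnf, Apln, C1qtnf3 and Fgf2, followed in mouse soleus with and without a knockout of Yy1. Members were all probe sets whose platform annotation holds a single gene symbol that is on this list. The rule found 10 probe sets for 8 genes, out of 22626 non-control probe sets and 12393 named genes, and Gdf15 was not analysed here because no probe set is annotated to it alone. The knockout group held 4 arrays from mice labelled as Yin Yang 1 (YY1) knockout and the wild type group held 3 arrays. All animals were 6 months of age and came from a mixed C57Bl/6 and 129 background. The labels do not name the removed part of Yy1, the cells it was removed from, or whether each array stands for a separate animal. The members were chosen by secreted factor lists with the differences between these groups in intensity already known, so those differences are given as a description, without p-values.

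Skeletal muscle releases proteins that act on the muscle itself, on its vessels and nerves, and on distant organs, and such factors are often called myokines. IL-15 is a cytokine that is presented by its own alpha receptor and signals through STAT5 in lymphocytes. IL-6 and LIF both signal through the shared receptor chain gp130, encoded by Il6st, and through STAT3, with SOCS3 as feedback inhibitor. FGF21 is a hormone of nutrient and mitochondrial stress that needs the co-receptor beta-klotho, and GDF15 is a stress hormone read by the receptor GFRAL in the brainstem. BDNF is a neurotrophin, apelin a peptide that acts on vessels and muscle, and C1QTNF3 (also CTRP3) a secreted relative of adiponectin. FGF2 is a heparin-binding growth factor of muscle precursor cells.

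Promoter sequence shows what these genes carry ahead of their start sites. RefSeq windows (GRCm38.p6, 250 bases before to 50 after a start) were held for 8 of the 9 genes, in 15 windows of which 7 belong to Bdnf, and none was held for Il15. The letters CCATNTT, the core of the YY1 motif, were searched on both strands (AANATGG on the other) and stood in 2 of the 15 windows, once in Bdnf and once in Gdf15, while 16.1% of all 32851 windows hold them. The letters TGATGNAA (TTNCATCA on the other strand), the element read by C/EBP and ATF factors such as ATF4, stood in 2 of the 15, once in Fgf21 and once in Bdnf, against 3.97% of all windows. These motifs share no letters in any window printed. A match is a description and no evidence of binding. Printed are the 250 bases before the start for Fgf21, C1qtnf3 and the Bdnf window with the YY1 letters. The TGATGNAA match of Fgf21 lies before the start, and C1qtnf3 was the member highest in knockout relative to wild type. The sequences run 5′ to 3′ on the gene's strand, with the matched letters in capitals. They lie at chr7:45615491-45615740 (- strand), chr15:10952082-10952331 (+ strand) and chr2:109722671-109722920 (+ strand).
Fgf21: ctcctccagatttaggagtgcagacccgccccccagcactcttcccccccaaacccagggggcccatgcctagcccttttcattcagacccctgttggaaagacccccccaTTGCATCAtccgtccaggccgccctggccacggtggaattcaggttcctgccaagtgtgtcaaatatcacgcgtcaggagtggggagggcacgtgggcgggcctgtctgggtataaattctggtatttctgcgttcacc
C1qtnf3: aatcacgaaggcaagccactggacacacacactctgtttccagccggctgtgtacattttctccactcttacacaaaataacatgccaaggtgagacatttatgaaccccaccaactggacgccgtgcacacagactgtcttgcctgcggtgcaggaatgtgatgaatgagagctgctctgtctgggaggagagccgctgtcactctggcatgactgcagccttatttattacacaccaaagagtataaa
Bdnf: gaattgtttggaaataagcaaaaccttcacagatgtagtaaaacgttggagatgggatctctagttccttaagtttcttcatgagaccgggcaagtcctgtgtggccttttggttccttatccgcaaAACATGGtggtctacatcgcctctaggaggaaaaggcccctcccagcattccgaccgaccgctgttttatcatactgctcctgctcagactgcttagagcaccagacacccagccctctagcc
The Fgf21 match begins 139 bases before the start and the Bdnf match 123 bases before it. The TGATGNAA match of this Bdnf window lies after the start, outside the bases printed. C1qtnf3 holds neither motif in its window.

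Each array gave 1 intensity per probe set, with array medians between 139.1 and 143.2, and values are given below as log2(intensity + 1). Correlations over all probe sets were 0.9955 to 0.9970 among knockout arrays, 0.9970 to 0.9973 among wild type arrays and 0.9800 to 0.9889 across the groups. The brightest Yy1 probe set measured 8.39, 8.24, 8.48 and 8.29 on the knockout arrays, against 9.32, 9.20 and 9.62 on the wild type arrays (log2 fold change -1.02, SE 0.11, adjusted p = 0.000271 by limma). The other Yy1 probe sets gave -1.70 (SE 0.14), -0.77 (SE 0.15) and -0.06 (SE 0.11), the last of them dim in both groups. All 9 soleus fibre markers, among them Myh7 of the slow myosin heavy chain, were measured. Their group means lay between 14.58 and 15.62 log2 units, at the top of the scale. The files hold no detection call, so a background level was taken from 48 probe sets of 33 genes typical of other organs. Its upper quartile was 6.05 log2 units in knockout and 5.97 in wild type, and a probe set whose group mean lay at or below it is called near background. The highest knockout mean among those 48 probe sets was 8.53, so a value above the level does not alone show expression.

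Il15 was lower and C1qtnf3 higher in the knockout soleus, each by more than 2.5 log2 units as measured, and a Bdnf probe set and Apln differed by less. Il15 in knockout and C1qtnf3 in wild type had means near background, so neither size is firm. Against that level C1qtnf3 was higher by 1.70 log2 units. The other 6 probe sets, of Il6, Fgf21, Fgf2, Lif and the dimmer one of Bdnf, lay near background in both groups. By the fit over all probe sets, 2 of the 10 were past the threshold upward and 2 downward, where 28.6% of all probe sets passed it, 14.3% upward and 14.3% downward. Knockout and wild type values did not overlap in 5 of the 10, with 3 higher and 2 lower in knockout, beside 36.4% of all probe sets, 18.4% higher and 17.9% lower. Nothing is read from these shares, since the choice of genes rests on the same comparison.

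**Figure D1:**
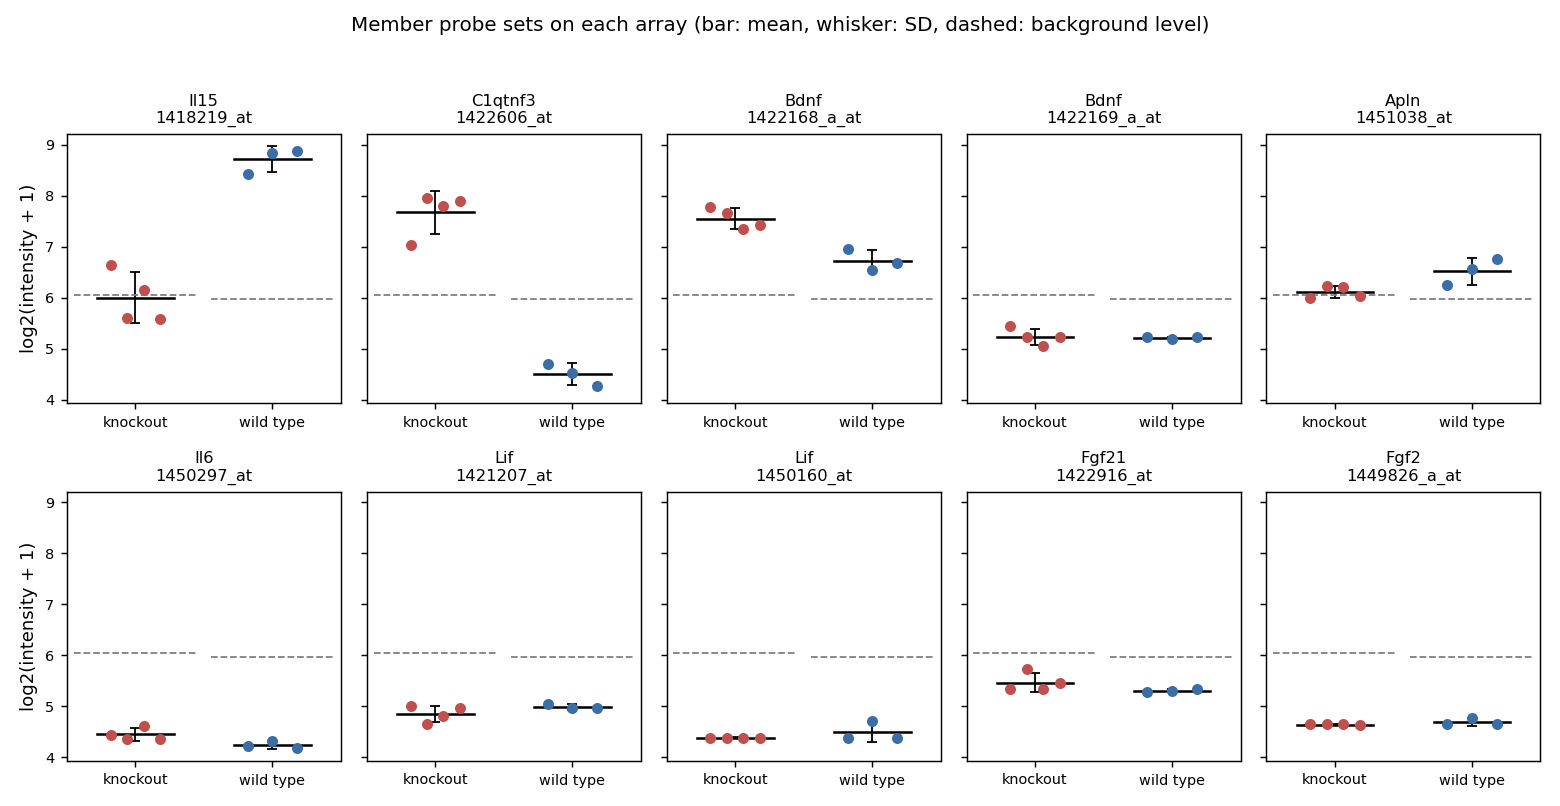
Values of the 10 member probe sets as log2(intensity + 1), 1 point per array, knockout (4 arrays, red) left of wild type (3 arrays, blue), with mean (bar), SD (whisker) and the background level of each group (dashed). Il15 in knockout straddles the dashed line, C1qtnf3 lies below it in wild type, and the lower row lies below it throughout.

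Il15 had the largest deficit among the members. Its probe set measured 6.64, 5.61, 6.16 and 5.59 log2 units on the 4 knockout arrays, against 8.43, 8.84 and 8.88 on the 3 wild type arrays. In linear intensity this was 98.5, 47.9, 70.6 and 47.1 in knockout and 345, 458 and 472 in wild type. Every knockout array lay below every wild type array, with a gap of 1.80 log2 units between the groups. Means were 6.00 ± 0.50 in knockout (SD, n = 4) and 8.72 ± 0.25 in wild type (SD, n = 3), and the log2 fold change was -2.72 (SE 0.25), which left 15.2% of the wild type signal. Among 12393 genes, each by its brightest probe set, 8 had a log2 fold change as low as that of Il15 or lower, itself included. The knockout mean lay near background, with 2 of 4 arrays at or below that level, and with such values raised to it the log2 fold change was -2.49. Knockout array 1 had the highest Il15 value of its group. The same array had the lowest C1qtnf3 value of the group (7.04).

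Of 6 measured genes of the IL-15 receptor and its signalling, 2 fell, none rose and 4 did not pass, with a median log2 fold change of -0.06, against 0.01 over all genes. Of all genes, 31.8% passed the threshold, 16.3% upward and 15.5% downward, so the 2 of 6 are near the share of all genes. Il15ra, the alpha receptor that carries IL-15 to the cell surface, measured 8.47, 8.27, 8.22 and 8.18 in knockout and 8.99, 8.95 and 8.84 in wild type. It fell by 0.64 log2 units (SE 0.08, adjusted p = 0.000674 by limma), and its other probe set gave -0.66 (SE 0.11, adjusted p = 0.00253). Stat5b, a transcription factor downstream of the receptor, had 9.65, 9.50, 9.41 and 9.71 in knockout and 10.14, 10.14 and 10.36 in wild type (log2 fold change -0.64, SE 0.09, adjusted p = 0.00122), and its dimmer probe set measured -0.09. The count of genes higher was 1 without wild type array 2, when Il2rb, of the shared beta receptor chain, reached 0.25 (adjusted p = 0.0296). Il2rb lay near background in both groups, and its other probe set measured -0.02. Marker sums of other cell types moved beside these values. All 8 macrophage markers rose, with summed intensities of 6914 to 11329 in knockout and 3190 to 3865 in wild type, and 6 of 7 endothelial markers fell, at 1700 to 1794 in knockout and 3240 to 3632 in wild type. Of 8 lymphocyte and NK cell markers only the pan-leukocyte gene Ptprc passed, upward, and the list summed to 687 to 794 in knockout and 540 to 551 in wild type. In that list Cd3g, Nkg7, Gzma and Gzmb lay near background in both groups. Ptprc had a median intensity of 232 in knockout and 76.3 in wild type, so it carried much of the difference in the sum. The part of any of these markers in the Il15 difference was not tested. In whole muscle fewer cells of a type and less RNA per cell cannot be told apart.

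C1qtnf3 was the member with the largest surplus in knockout. Its values were 7.04, 7.95, 7.79 and 7.90 log2 units on the knockout arrays, against 4.70, 4.53 and 4.27 on the wild type arrays, which is 130, 246, 221 and 238 against 24.9, 22.1 and 18.3 in linear intensity. The groups stood 2.34 log2 units apart at their nearest values. Means were 7.67 ± 0.43 in knockout (SD, n = 4) and 4.50 ± 0.21 in wild type (SD, n = 3), so the log2 fold change was 3.17 (SE 0.22). All 3 wild type arrays lay below the background level, so this size depends on values that have no firm order. Against the background level the signal was at least 3.24-fold higher in knockout (1.70 log2 units). By the fitted value, 8 of 12393 genes rose as much or more, C1qtnf3 included.

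Relatives of C1qtnf3 did not show a difference of that size. Of 7 measured genes of C1q/TNF-related proteins, adiponectin and its receptors, 1 rose, none fell and 6 did not pass. The median log2 fold change was 0.10, against 0.01 over all genes, of which 31.8% passed. The gene that rose was C1qtnf4, with 8.37, 8.61, 8.28 and 8.71 in knockout and 8.26, 7.91 and 7.89 in wild type (log2 fold change 0.47, SE 0.13, adjusted p = 0.0250 by limma). The adjusted p missed the threshold when knockout array 2 (0.0682) or 4 (0.0576) or wild type array 2 (0.0990) or 3 (0.1) was left out. It also did when replicate numbers formed a block (0.0650), a fit without knockout array 4. Adipoq, of adiponectin itself, measured -0.45 (SE 0.28, adjusted p = 0.281). It was chosen after its values were seen, as the best known of the family. Markers of connective tissue moved in the direction of C1qtnf3. Of 7 fibroblast markers 5 rose and none fell, with summed intensities of 25607 to 38169 in knockout and 20020 to 23575 in wild type. Of 7 tendon and cartilage markers 4 rose and none fell, summing to 7730 to 12935 in knockout and 5552 to 5921 in wild type, while the cartilage genes Acan and Col2a1 lay near background in both groups. Adipocyte markers had lower sums, at 7610 to 10604 in knockout and 14112 to 15331 in wild type, with 1 of 4 measured genes higher and 1 lower. Macrophage markers, given above, rose. The part of any of these markers in the C1qtnf3 difference was not tested.

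Bdnf gave differing readings from its probe sets, which were designed on the same sequence record. The brighter, 1422168_a_at, measured 7.78, 7.65, 7.35 and 7.42 log2 units in knockout and 6.95, 6.54 and 6.68 in wild type, with no overlap and a gap of 0.40. Its means were 7.55 ± 0.20 in knockout (SD, n = 4) and 6.72 ± 0.21 in wild type (SD, n = 3), so the log2 fold change was 0.83 (SE 0.13) or 1.77-fold. The dimmer, 1422169_a_at, lay near background at 5.05 to 5.44 in knockout and 5.20 to 5.23 in wild type (log2 fold change 0.01, SE 0.09). It had the same value to every digit on 4 of 7 arrays. Averaged over both probe sets the log2 fold change was 0.42, so the Bdnf difference rests on the brighter of them. Among 6 measured genes of neurotrophins, their receptors and processing, none passed the test (median 0.03), where 31.8% of all genes passed. Sort1, the sorting receptor of pro-neurotrophins, measured 0.36 (SE 0.12, adjusted p = 0.0517 by limma) and Ngfr, the low-affinity receptor, -0.15 (SE 0.06, adjusted p = 0.121). Their unadjusted p-values were 0.0150 for Sort1 and 0.0470 for Ngfr, but Ngfr lay near background in both groups and its other probe sets measured -0.03 and 0.00. Without knockout array 1 Sort1 passed, at 0.48 (adjusted p = 0.000817).

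Apln was slightly lower in knockout, close to the background level. It had 6.00, 6.23, 6.21 and 6.03 log2 units on the knockout arrays, of which 2 lay at or below that level, and 6.24, 6.56 and 6.76 on the wild type arrays. The groups missed each other by 0.01 log2 units only, with means of 6.12 ± 0.12 in knockout (SD, n = 4) and 6.52 ± 0.26 in wild type (SD, n = 3) and a log2 fold change of -0.40 (SE 0.12). When 1 array at a time was left out this lay between -0.54 and -0.28. None of the 3 measured genes of the apelin receptor system passed (median -0.33), where 31.8% of all genes did. The receptor gene Aplnr measured 8.99, 8.66, 9.10 and 8.22 in knockout and 9.19, 9.10 and 9.18 in wild type (log2 fold change -0.42, SE 0.19, adjusted p = 0.138 by limma), and its dimmer probe set gave -0.37 (SE 0.10, adjusted p = 0.0250). Mme, of the peptidase neprilysin, measured -0.33 (SE 0.13, adjusted p = 0.0872). Endothelial markers, of cells known to carry the apelin receptor, were lower as given above, and their part in the Apln difference was not tested.

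**Figure D2:**
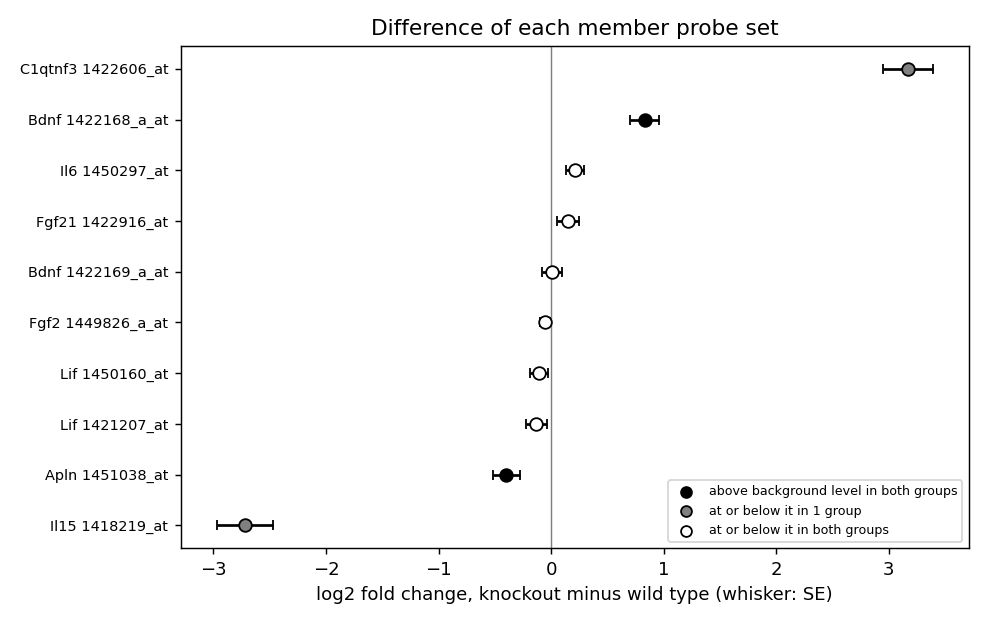
Log2 fold change of each member probe set, knockout minus wild type, with SE (whisker). Black points lie above the background level in both groups, grey points at or below it in 1 group and white points in both; the 6 white points lie between -0.13 and 0.21, while Il15 stands at -2.72 and C1qtnf3 at 3.17.

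Il6, Lif, Fgf21 and Fgf2 were read near background on every array of both groups. Il6 had 4.37 to 4.62 log2 units in knockout and 4.19 to 4.33 in wild type, which is 19.7 to 23.6 against 17.2 to 19.1 in linear intensity (log2 fold change 0.21, SE 0.08). Its groups did not overlap but stood only 0.04 log2 units apart, at a level where 7.16% of all probe sets in knockout and 3.68% in wild type were as dim or dimmer. Fgf21 had 5.34, 5.73, 5.34 and 5.45 in knockout and 5.29, 5.30 and 5.34 in wild type, so that only knockout arrays 2 and 4 lay above the wild type values (log2 fold change 0.15, SE 0.10). The probe sets of Lif, 1421207_at and 1450160_at, gave log2 fold changes of -0.13 (SE 0.09) and -0.11 (SE 0.08) with overlapping groups. Fgf2 had 4.63 to 4.65 in knockout and 4.65 to 4.78 in wild type (log2 fold change -0.05, SE 0.05). A small difference of these transcripts was not detectable here, which does not show that it is absent.

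The deposited values themselves show how little these dim probe sets resolve. Fgf2 had the same intensity to every digit on 5 of 7 arrays, Lif 1450160_at on 4, and Lif 1421207_at and Fgf21 on 3 each. Together with the dimmer Bdnf probe set, 5 of the 10 member probe sets had 3 or more arrays at a single exact value. Over all probe sets this held for 21.2%, for 40.3% among those up to the 25th percentile of mean level and for 4.76% among those above the 75th.

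Receptors that IL-6 and LIF use were measured above the background level by their brightest probe sets, and moved in different directions. Of 17 measured genes of the gp130 list, 6 rose, 3 fell and 8 did not pass (median -0.04, against 0.01 over all genes). Over all genes 16.3% rose and 15.5% fell. Il6st, the shared gp130 chain, measured 11.85, 11.89, 11.75 and 11.80 in knockout and 11.18, 11.11 and 11.28 in wild type (log2 fold change 0.63, SE 0.06, adjusted p = 0.000237 by limma). All 3 of its probe sets rose, the others by 0.27 and 0.40. In contrast, Il6ra, the chain specific to IL-6, had 7.01, 7.04, 7.11 and 7.21 in knockout and 7.93, 7.76 and 7.70 in wild type (log2 fold change -0.71, SE 0.08, adjusted p = 0.000341), with -0.39 in a dimmer probe set that fell as well. Lifr, of the LIF receptor chain, had 9.69, 9.02, 9.33 and 9.55 in knockout and 10.36, 10.47 and 10.53 in wild type (log2 fold change -1.06, SE 0.14, adjusted p = 0.00102), while its 2 dimmer probe sets both measured -0.07. By their brightest probe sets Il6st was higher and Il6ra and Lifr lower, with no overlap of the groups in any of the 3.

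Ligands of the same family also split, while the transducer and target genes past the threshold in the fit of all arrays rose. Ctf1, of the ligand cardiotrophin 1, fell by 0.67 (SE 0.09, adjusted p = 0.00107 by limma), with 9.55, 9.51, 9.25 and 9.30 in knockout and 10.09, 10.19 and 9.95 in wild type. Clcf1, of cardiotrophin-like cytokine, rose by 0.88 (SE 0.09, adjusted p = 0.000279), with 6.29, 6.66, 6.62 and 6.58 in knockout and 5.65, 5.62 and 5.71 in wild type. All 3 wild type values of Clcf1 lay below the background level, so that size is not firm. Of its other probe sets, both near background in both groups, 1 measured 0.97 (SE 0.15, adjusted p = 0.00157) and 1 measured -0.01 (SE 0.10). The kinase gene Pim1, a known STAT3 target, rose by 0.44 (SE 0.10, adjusted p = 0.0118). Its call was lost when wild type array 2 was dropped (adjusted p = 0.0544) or replicate numbers formed a block without knockout array 4 (0.0684). The remaining genes that rose, named after their values were seen, were Socs3, Stat3 and Cebpd. Socs3, the feedback inhibitor, had 9.51, 8.27, 7.91 and 7.51 in knockout and 6.74 to 7.09 on the 3 wild type arrays (log2 fold change 1.35, SE 0.40, adjusted p = 0.0364). Knockout array 1 carried its highest value, and the knockout arrays spread over a wider range than for the receptors. Stat3 measured 0.29 (SE 0.09, adjusted p = 0.0452) and Cebpd 0.35 (SE 0.10, adjusted p = 0.0296). Other probe sets gave 1.15 and 1.08 for Socs3, the latter not past the threshold (adjusted p = 0.11), and 0.35 for Stat3. Further ones of Stat3 (-0.06) and Cebpd (0.06) lay near background in both groups. Cebpb (-0.11), Socs1 (-0.26) and Bcl3 (0.18) did not pass. The genes that rose numbered 3 without knockout array 2 or 3 or any of the wild type arrays. Adjusted p was 0.0510 to 0.137 for those of Socs3, Stat3 and Cebpd that lost their call. When wild type array 1 was dropped 5 genes fell, with Jak2 (-0.26, adjusted p = 0.0279) and Socs1 (-0.39, adjusted p = 0.0084) added.

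**Figure D3:**
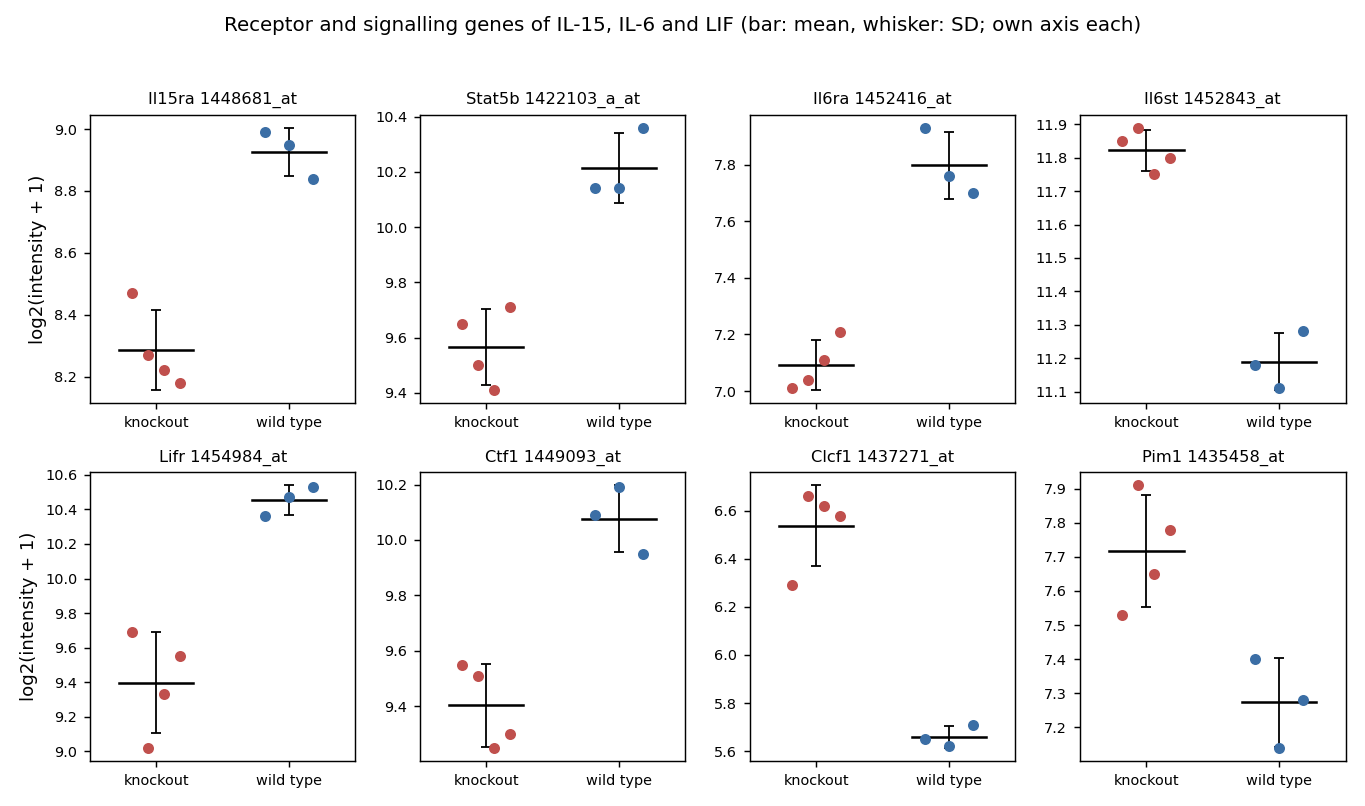
Values of 8 receptor and signalling genes of IL-15, IL-6 and LIF as log2(intensity + 1), 1 point per array, knockout left of wild type, with mean (bar) and SD (whisker); each panel has its own axis. Il15ra, Stat5b, Il6ra, Lifr and Ctf1 are lower in knockout and Il6st, Clcf1 and Pim1 higher, and in each panel the groups are separate.

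Within the FGF system some genes passed the threshold, while the ligands Fgf21 and Fgf2 lay near background, where a difference is hard to see. Of 26 measured genes, 6 rose, 4 fell and 16 did not pass (median 0.06). Of all genes, 16.3% passed upward and 15.5% downward. Fgf1, a growth factor abundant in muscle, had 10.06, 9.56, 9.59 and 9.80 in knockout and 10.66, 10.64 and 10.68 in wild type, and fell by 0.91 (SE 0.11, adjusted p = 0.000678 by limma), with -1.15 in its other probe set. Etv5 and Dusp6 are transcripts induced by FGF signalling through ERK. Etv5 rose by 1.09 (SE 0.12, adjusted p = 0.000335), with 6.87, 7.38, 7.05 and 7.03 in knockout and 5.90, 5.94 and 6.14 in wild type. Its other probe set, near background in both groups, measured 0.33 (SE 0.09, adjusted p = 0.0199). Dusp6 rose by 0.69 (SE 0.09, adjusted p = 0.000937). The feedback genes Spry1 (-0.01), Spry2 (0.19), Spry4 (-0.01, near background in both groups) and Etv4 (0.17) did not pass. Among heparan sulphate co-receptors, Gpc1, of glypican 1, rose by 0.70 (SE 0.07, adjusted p = 0.000312) and Sdc4, of syndecan 4, fell by 0.31 (SE 0.07, adjusted p = 0.0112). The ERK inhibitor gene Spred2 fell by 0.70 (SE 0.09, adjusted p = 0.000903), although its dimmer probe set measured 0.01. Its relative Spred1, named after its values were seen, went the other way and rose by 0.49 (SE 0.10, adjusted p = 0.00814), with 0.48 and 0.55 in its other probe sets, which rose as well. Klb, of the beta-klotho that FGF21 requires, lay near background in both groups, with 5.12, 5.30, 5.18 and 5.07 in knockout and 5.16, 5.12 and 5.01 in wild type, and was chosen after its values were seen.

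Stress genes that commonly move with Fgf21 and Gdf15 were partly higher. Of 20 measured genes of the integrated stress response, 8 rose, 1 fell and 11 did not pass (median 0.28, against 0.01 over all genes). Over all genes 16.3% rose and 15.5% fell. Mthfd2, of mitochondrial folate metabolism, had 9.46, 9.39, 9.41 and 8.99 in knockout and 7.79, 7.91 and 7.85 in wild type (log2 fold change 1.47, SE 0.11, adjusted p = 9.19e-05 by limma), with 2.09 in its other probe set. Trib3, of a pseudokinase induced by ATF4, rose by 0.70 (SE 0.12, adjusted p = 0.00300) and Ppp1r15a, of a phosphatase subunit that reverses the response, by 0.32 (SE 0.05, adjusted p = 0.00295). Chac1, of a glutathione-degrading enzyme and another known ATF4 target, went the other way, with 7.96, 7.55, 7.87 and 8.27 in knockout and 9.34, 8.99 and 9.47 in wild type (log2 fold change -1.36, SE 0.17, adjusted p = 0.000665). Atf4 itself measured -0.09 (SE 0.06, adjusted p = 0.341) and did not pass, with -0.36 and -0.20 in its other probe sets. Neither did Atf3 (0.66), Atf5 (0.26) or Nupr1 (0.02), and these genes were named after their values were seen. The count that rose was 5 without wild type array 2. On the same arrays Fgf21 stayed near background, as given above. For the GDF15 receptor genes only the co-receptor gene Ret was measured, and fell by 0.35 (SE 0.09, adjusted p = 0.0170), near background in knockout. This was not past the threshold when wild type array 1 (adjusted p = 0.0636) or 2 (0.0711) was dropped. Nor was it when replicate numbers formed a block without knockout array 4 (0.0655).

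Of 26 other secreted factors of muscle measured, 9 rose, 5 fell and 12 did not pass, beside 16.3% of all genes upward and 15.5% downward (median 0.12, against 0.01 over all genes). Timp1, of an inhibitor of matrix proteases, had 8.80, 9.64, 9.84 and 9.39 in knockout and 6.62, 6.94 and 6.77 in wild type, and rose by 2.64 (SE 0.22, adjusted p = 0.000124 by limma). Fst, of the myostatin antagonist follistatin, rose by 1.86 (SE 0.20, adjusted p = 0.000319), with 10.34, 11.17, 10.56 and 10.59 in knockout and 8.98, 8.48 and 8.96 in wild type. The chemokine gene Cx3cl1 rose by 1.37 (SE 0.16, adjusted p = 0.000420), with 0.29 (SE 0.09, adjusted p = 0.0405) in a dimmer probe set and -0.04 in another that lay near background in both groups. Downward, the chemokine gene Cxcl12 had 9.40, 9.56, 9.69 and 9.56 in knockout and 11.08, 10.86 and 11.05 in wild type (log2 fold change -1.45, SE 0.08, adjusted p = 4.88e-05), with -0.15 in its dimmer probe set. Vegfa, of the main vessel growth factor, fell by 1.30 (SE 0.14, adjusted p = 0.000335) and Vegfb, its relative, by 1.08 (SE 0.12, adjusted p = 0.000438). The macrophage, fibroblast and endothelial marker sums given above moved beside this list, and their part in it was not tested.

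**Figure D4:**
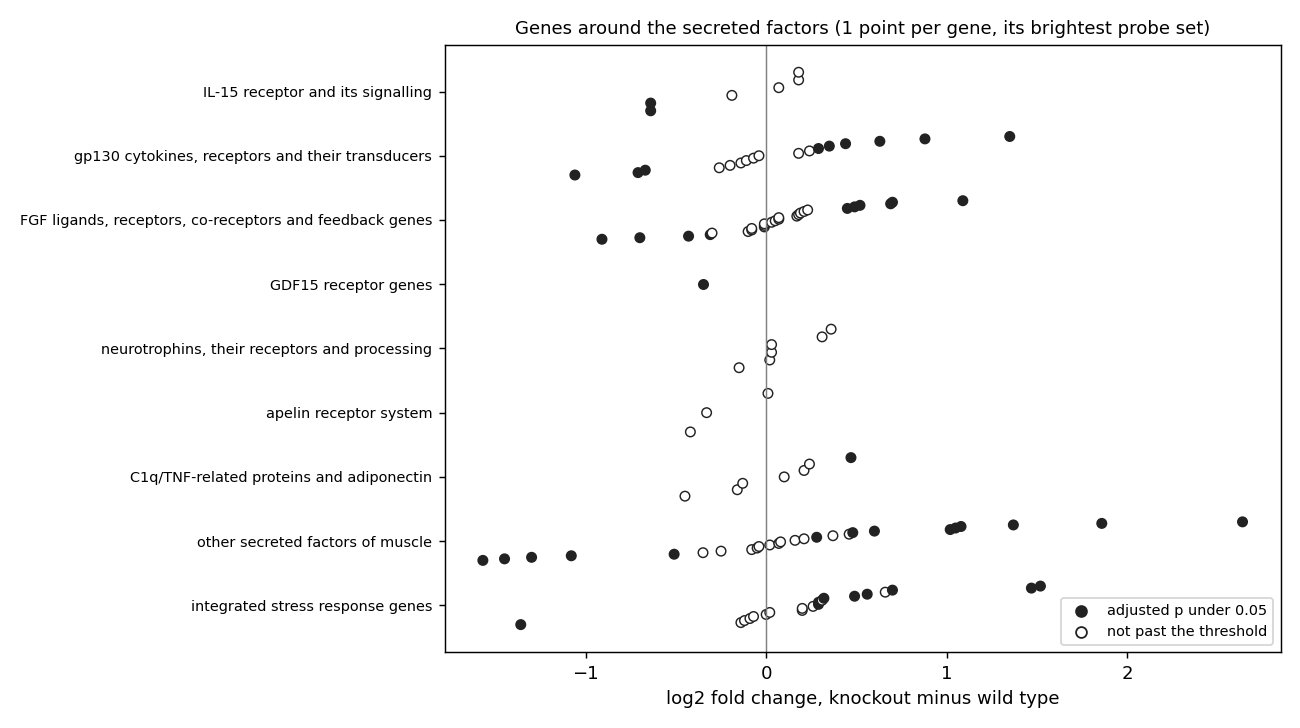
Log2 fold change, knockout minus wild type, of each measured gene of 9 lists around the secreted factors, 1 point per gene by its brightest probe set; filled points passed the threshold on the adjusted p. The widest spread is among other secreted factors, where Timp1 stands at 2.64 and Angptl4 at -1.57, while no neurotrophin or apelin system gene is filled.

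Across the 7 arrays, the transcripts whose profiles were most like those of the leading members were sought by the root mean square difference of log2 values centred on each probe set's mean, among probe sets above the median level. For Il15 they were Plbd1 (0.237 log2 units), As3mt (0.244) and Clybl (0.285). Their log2 fold changes were -2.98, -2.56 and -2.57. For C1qtnf3 they were the matrix gene Postn (0.191), the imprinted gene Peg3 (0.235) and the myogenic factor gene Myog (0.302), with log2 fold changes of 3.18, 3.06 and 2.86. For Fgf21 they were Chd4 (0.0289), Gle1 (0.0508) and Klf3 (0.0543), with log2 fold changes of 0.11, 0.11 and 0.07, and all of these profiles are nearly flat. Likeness over 7 arrays in 2 groups is carried mostly by the difference between the groups.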

How the data were processed

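Soleus RNA was measured on 7 one-colour Affymetrix arrays, 4 knockout and 3 wild type. The authors deposited linear intensity values made with RMA, per the submitters' processing notes. Minimum intensities per array were 11.34 to 12.88 and maximum ones 48550 to 50754. After 64 control probe sets were left out, log2(value + 1) of 22626 probe sets was tested with limma 3.58.1 under R 4.3.3 (lmFit, then eBayes; tests two-sided). P-values were adjusted by Benjamini-Hochberg, with 0.05 as threshold. Each log2 fold change is knockout less wild type. The number of arrays limits the precision, and p-values measure only the spread between these samples. Of the probe sets, 20380 had 1 symbol, 691 several and 1555 none; symbols were updated through Entrez identifiers in a RefSeq table. In gene lists the brightest probe set stood for a gene. Members, lists and tests were chosen with earlier results of these data known. Named list genes were, by rule, up to 3 per direction with the smallest adjusted p, or the 2 smallest where none passed. In 10 simulated draws, 200 probe sets among 22626 were changed. There limma recovered 95.1% of log2 changes of 1 and 62.7% of changes of 0.5, and 4.42% of its calls were false. In the data 28.6% of probe sets were called and many dim ones shared exact values. The draws did not copy this, so these rates may not hold here. No pair of arrays shared more than 1819 values exactly. Same-numbered arrays of the groups did not deviate together (correlations of 0.048, -0.098 and 0.011), so numbers were not taken as pairs. Alternatives were the pseudocount, a level filter, centring, the unit tested, a variance trend, the block (fitted without knockout array 4) and leaving out each array. No label or header names a batch.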

Additional observations from a re-analysis of the deposited data

Results flagged for a closer look

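Among the knockout arrays of 40 probe sets examined, 6 had an array far from the other 3, measured as the gap to the nearest array over the range of the group; chance gives about 1 in 20. The ratio was 0.83 for C1qtnf3, whose knockout array 1 was low, 0.854 for Lif 1450160_at and 1 for Fgf2, where the other 3 knockout arrays shared a value and the whole range was 0.02 log2 units. It was 0.855 for Mthfd2, with knockout array 4 low, 0.889 for Ret, with knockout array 2 low, and 0.915 for Sort1, with knockout array 1 low. Groups of 3 wild type arrays were not examined in this way.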

How the results depend on the processing

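The log2 fold changes of the 10 member probe sets kept within 1 SD of the reported value, except Bdnf with its probe sets averaged (0.42) and C1qtnf3 with values raised to the background level (1.70), an alternative chosen after seeing the data. With 1 array left out, Il15 lay between -2.93 and -2.58, C1qtnf3 between 3.06 and 3.38 and the brighter Bdnf probe set between 0.73 and 0.94. With replicate numbers as a block and knockout array 4 left out (replicate block), Il15 measured -2.58. In that fit the calls of Ret and C1qtnf4 were lost, leaving 0 genes in each of their lists. Pim1, Fgf18, Slc3a2 and Tgfb1 lost theirs too. Over all probe sets 3240 rose and 3237 fell; with the block 2440 and 2620, and with 1 array left out 2391 to 3101 and 2487 to 3123. Fewer features were tested with the brightest probe set per gene (2103 and 1979) or probe sets averaged (2039 and 2073). Sort1 was called, giving 1 neurotrophin gene, above the median level only, with arrays centred on their median and with the brightest probe set per gene. Averaged probe sets gave 1 call in the apelin system, Aplnr. With 1 array left out, the counts ranged from 0 to 1 gene higher for the IL-15 receptor, neurotrophin and C1q/TNF lists, 2 to 3 lower for the IL-15 receptor list, 0 to 1 lower for GDF15 receptor genes, 5 to 6 higher and 3 to 4 lower for the FGF list, 8 to 10 higher and 5 to 6 lower for other secreted factors, 3 to 5 higher and 3 to 5 lower for the gp130 list, and 5 to 8 higher for stress genes. Above the median level only, the dim members and the GDF15 receptor list had no value. With background at the median of all probe sets, 7 member probe sets were near it in both groups, against 6.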
